A study of Homo sapiens with 4 samples.

Results

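Respiratory complex I, the NADH:ubiquinone oxidoreductase of the inner mitochondrial membrane, is described here through its nuclear genes in human bronchial epithelial cells grown with cadmium. The genes were chosen by name, as rows whose symbol is NDUF followed by A, B, C, S, V, AB or AF and a number. The rule found 46 of the 25411 genes in the deposited tables: 37 subunits, 7 assembly factors, and NDUFA4 and NDUFA4L2, which carry the name without being counted as complex I subunits. NDUFA4 is a subunit of complex IV, and NDUFA4L2 is its paralog. All 46 passed the filter on low counts.

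The cells were BEAS-2B, an established line from human bronchial epithelium. The control group had 2 libraries of cells grown for 72 h without added metal, and the cadmium group had 2 libraries of cells grown for 72 h with 5 µM CdCl2. Total RNA was sequenced and read counts per gene were deposited. The study's title names SNAIL1 and miR-30e, and its design text describes a comparison of gene expression in replicates. The labels place the controls in experiment 1 and the cadmium libraries in experiment 2, so experiment and treatment cannot be told apart. No label says that the replicates were separate cultures, and p-values therefore rest on a spread that may be technical.

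Gene-assigned reads numbered 26529403 and 8609243 in the controls and 29937242 and 15537382 with cadmium. Levels are CPM, the reads of a gene relative to the TMM-scaled library size, listed as control replicates 1 and 2 and then cadmium replicates 1 and 2. In the shallowest library 3 reads were 0.356 CPM, a floor that covers counting error only. The keratins KRT8, KRT18 and KRT7 had between 204 and 649 CPM in every library, whereas KRT5 and KRT14 had at most 1 read and TP63 had 0. The 9 epithelial markers summed to 1270 and 1476 CPM in the controls and to 1087 and 1196 CPM with cadmium, and of the 5 tested EPCAM rose and KRT7 fell. Of the 5 fibroblast markers COL3A1 and DCN were at 0 and COL1A2 had at most 2.23 CPM. COL1A1 reached 4379 CPM, and PDGFRB had between 162 and 205 CPM in every library. The fibroblast list summed to 4543 and 3724 CPM in the controls and to 3451 and 3275 CPM with cadmium. The 4 endothelial markers summed to at most 0.823 CPM and the 5 leukocyte markers to at most 11.4 CPM, nearly all of it CD14, with CD3E at 0. Nuclear-retained RNAs, a sign of RNA quality, summed to 721 and 896 CPM in the controls and to 1270 and 1305 CPM with cadmium.

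Complex I takes electrons from NADH, passes them along a chain of iron-sulfur clusters to ubiquinone, and pumps protons out of the matrix. Its matrix arm holds the NADH and ubiquinone sites, its membrane arm holds the proton pumps, and accessory subunits surround a core inherited from bacteria. The pumping core subunits are encoded by mitochondrial DNA, are not named by the rule and are not analysed here. Assembly factors help to build the complex and leave it when it is complete. The transcription factors NRF1, GABP and YY1 are known to bind promoters of many nuclear genes of the respiratory chain.

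The promoters of 5 subunits are shown because these genes lie at the ends of the range of subunit fold changes. NDUFS7, NDUFS6, NDUFB7 and NDUFA11 were the 4 whose fall passed the test under each of 15 other ways of processing. NDUFB3 was the subunit with the highest fold change, which did not pass the test. They were chosen after their values were seen. Each run is RefSeq sequence of GRCh38.p14, 5′ to 3′ on the gene's strand, from 250 bases before the start to 50 bases after it. The windows are chr19:1383657-1383956 on the plus strand for NDUFS7, chr5:1801157-1801456 on the plus strand for NDUFS6, chr19:14572017-14572316 on the minus strand for NDUFB7, chr19:5903741-5904040 on the minus strand for NDUFA11 and chr2:201071751-201072050 on the plus strand for NDUFB3. Capitals mark matches, on either strand, to GCATGCGC (a core of the NRF1 site), CCGGAAG (an ETS site of the kind GABP binds) and AAGATGGCG (a YY1 site).
NDUFS7: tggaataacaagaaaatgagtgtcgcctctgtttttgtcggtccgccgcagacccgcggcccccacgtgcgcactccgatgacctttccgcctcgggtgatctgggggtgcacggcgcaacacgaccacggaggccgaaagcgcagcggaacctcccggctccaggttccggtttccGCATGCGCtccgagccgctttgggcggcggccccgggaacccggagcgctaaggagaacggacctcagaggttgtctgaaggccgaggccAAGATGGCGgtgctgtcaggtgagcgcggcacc
NDUFS6: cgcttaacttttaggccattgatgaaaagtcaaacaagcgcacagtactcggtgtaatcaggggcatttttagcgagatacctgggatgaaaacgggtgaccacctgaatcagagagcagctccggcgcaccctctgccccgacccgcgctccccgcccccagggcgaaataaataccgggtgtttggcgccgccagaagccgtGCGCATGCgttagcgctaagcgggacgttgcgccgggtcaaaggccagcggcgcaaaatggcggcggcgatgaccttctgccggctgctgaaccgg
NDUFB7: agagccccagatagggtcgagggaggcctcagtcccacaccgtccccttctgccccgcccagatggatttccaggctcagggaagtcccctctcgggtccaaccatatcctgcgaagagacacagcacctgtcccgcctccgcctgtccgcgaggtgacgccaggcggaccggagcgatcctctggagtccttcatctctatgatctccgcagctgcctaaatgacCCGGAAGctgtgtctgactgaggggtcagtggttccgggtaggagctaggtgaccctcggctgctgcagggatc
NDUFA11: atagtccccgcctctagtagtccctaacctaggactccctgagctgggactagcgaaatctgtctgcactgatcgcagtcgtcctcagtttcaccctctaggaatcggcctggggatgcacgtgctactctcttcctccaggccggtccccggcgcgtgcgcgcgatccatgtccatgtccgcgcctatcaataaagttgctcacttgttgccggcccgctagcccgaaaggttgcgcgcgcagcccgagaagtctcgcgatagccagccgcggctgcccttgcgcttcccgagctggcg
NDUFB3: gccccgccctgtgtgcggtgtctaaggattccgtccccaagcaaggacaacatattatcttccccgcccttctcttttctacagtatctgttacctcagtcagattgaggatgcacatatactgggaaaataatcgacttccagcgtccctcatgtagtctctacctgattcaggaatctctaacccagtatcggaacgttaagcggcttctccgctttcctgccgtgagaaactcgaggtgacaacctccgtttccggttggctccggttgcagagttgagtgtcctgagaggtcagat

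NDUFS7 held an NRF1 match at position -73, counted with the first transcribed base as 0, and a YY1 match at position 17. NDUFS6 held an NRF1 match on the opposite strand at -46, and NDUFB7 an ETS match at -24. The windows of NDUFA11 and NDUFB3 held none of the 3 words. Of the members, 38 had a window, with 48 windows in all. Among 39 windows of 32 subunits, 6 held the NRF1 word (15.4%), 5 the ETS word (12.8%) and 6 the YY1 word (15.4%), against 3.05%, 10.3% and 1.75% of all 35116 windows. At least 1 word stood in 6 of the 12 windows of the 12 subunits that fell, against 14% of all windows. For the 20 subunits that did not pass the test, at least 1 word stood in 9 of 27 windows. Each of these 9 windows was of a different gene, so 9 of the 20 genes held a word. Some of these 20 genes had more than 1 window, so the window shares of the 2 groups are not comparable. A match is a description of the letters and not evidence of binding, and the shares rest on few windows.

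Transcripts of complex I subunits were lower with cadmium. Of 37 subunits 12 fell, 0 rose and 25 did not pass (edgeR's quasi-likelihood test, Benjamini-Hochberg adjusted p under 0.05 over 13663 genes). Over all tested genes 7.66% fell and 8.85% rose, so that the share of subunits that fell, 32.4%, stood above the background. The median log2 fold change of the subunits was -0.24, a level 15.4% lower, against 0.00 for all tested genes, and single subunits ranged from -0.59 to 0.18. Both cadmium libraries lay below both controls for 30 of the 37 subunits, against 30.8% of all tested genes, and above them for 1, against 31.3%. An unadjusted p under 0.05 was reached by 22 lower and 0 higher subunits, against 16.7% lower and 17.3% higher of all tested genes, and DESeq2 and limma-voom also gave 0 higher. Nuclear-retained RNAs moved the other way, with 3 of 4 (MALAT1, NEAT1 and MIAT) higher, and their part in the result was not tested. In bulk RNA, fewer cells of a type and less RNA per cell cannot be told apart. With libraries scaled by their totals alone 6 subunits fell and the calls over all genes shifted from 1209 higher and 1046 lower (53.6% higher) to 1445 higher and 682 lower (67.9% higher).

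**Figure D1:**
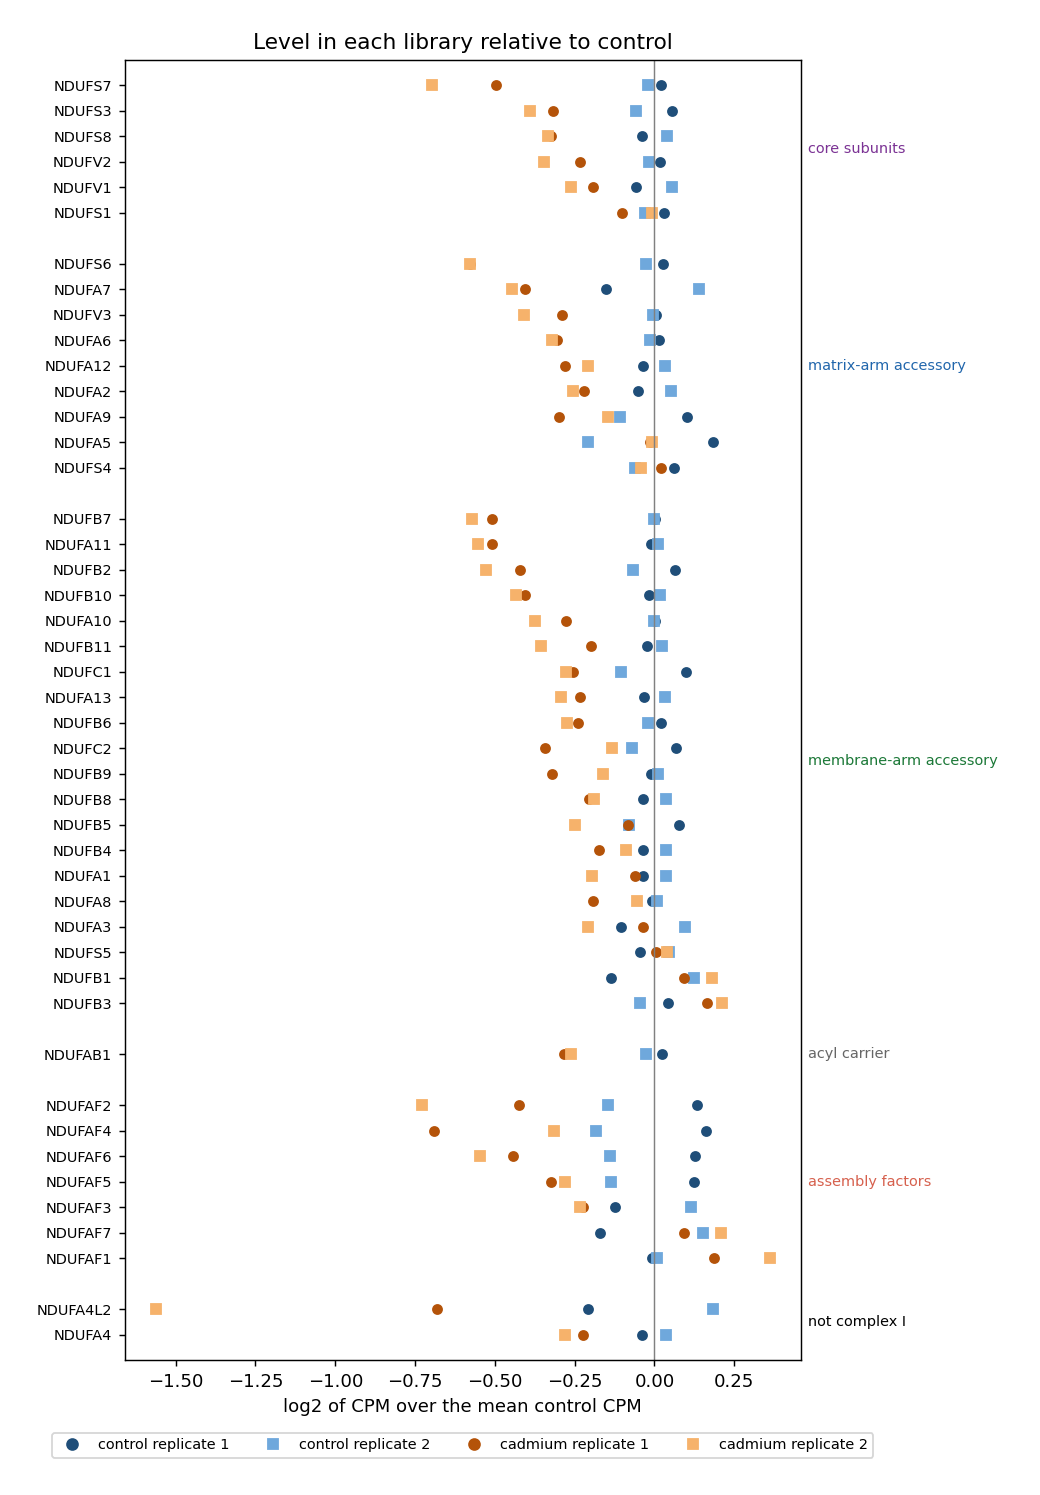
Level of 45 of the 46 genes in each library, as the log2 of its CPM over the mean control CPM, grouped by role and ordered by fold change within a role. Points are single libraries. Both cadmium points lie left of both control points for most subunits and for 5 of 7 assembly factors. The share over all tested genes was 30.8%.

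The core subunits in the matrix arm carry the redox centres, and 3 of these 7 fell (42.9%), against 7.66% of all tested genes. NDUFS7, which holds the last iron-sulfur cluster before ubiquinone (chromosome 19, 1383884 to 1395588 in hg19), had 130 and 126 CPM in the controls and 90.7 and 79.0 CPM with cadmium. Both cadmium libraries were well below both controls. It fell from 128 ± 2.63 to 84.9 ± 8.27 CPM (SD, n = 2 each), by 0.59 on the log2 scale (SE 0.10, edgeR adjusted p = 0.00926), a change of -33.7%. NDUFS3, which sits beside NDUFS7 in the ubiquinone-reducing part, had 105 and 97.4 CPM in the controls and 81.4 and 77.4 CPM with cadmium. The groups did not overlap, and it fell by 0.36 (SE 0.09, edgeR adjusted p = 0.0342). NDUFS8, another carrier of iron-sulfur clusters, had 232 and 245 CPM against 191 and 189 CPM. It fell by 0.33 (SE 0.08, edgeR adjusted p = 0.0270), with its cadmium libraries close together and below both controls. The call of NDUFS7 held under each alternative, whereas those of NDUFS3 and NDUFS8 were lost when either cadmium library was left out. With every library kept, both were also lost with library size alone (edgeR adjusted p = 0.0619 for NDUFS3 and 0.0501 for NDUFS8). The same held with gene-length-dependent and level-dependent scaling, and with length-and-GC-dependent scaling (edgeR adjusted p = 0.139 and 0.233).

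The other core subunits did not pass. NDUFV2, an iron-sulfur protein of the NADH-oxidising tip, had 111 and 108 CPM in the controls and 93.2 and 86.1 CPM with cadmium (-0.29 on the log2 scale, SE 0.09, edgeR adjusted p = 0.0577). NDUFV1, which binds NADH and the flavin, had 194 and 209 CPM against 176 and 168 CPM (-0.23, edgeR adjusted p = 0.0975). In both, each cadmium library lay below each control. NDUFS1, the largest iron-sulfur subunit, had 77.5 and 74.5 CPM against 70.8 and 75.6 CPM, and its groups overlapped (-0.06, SE 0.09, edgeR adjusted p = 0.710). The core subunits, which together form the electron path, thus spanned changes from -0.06 to -0.59 in RNA level, and differences between them were not tested.

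Accessory subunits of the matrix arm gave 4 of 9 that fell (44.4%, against 7.66% of all tested genes), with a median of -0.24 over the 9. NDUFS6, a zinc-binding subunit near the NADH-oxidising tip (chromosome 5, 1801497 to 1816167 in hg19), had 138 and 133 CPM in the controls and 90.7 CPM in each cadmium library. It fell from 135 ± 3.64 CPM by 0.58 (SE 0.08, edgeR adjusted p = 0.00657), a change of -33.1%, and the cadmium libraries were nearly identical. NDUFA7 had 71.5 and 87.4 CPM against 59.9 and 58.3 CPM. It fell by 0.42 (SE 0.11, edgeR adjusted p = 0.0424), with controls that differed more from each other than the cadmium libraries did. NDUFV3, at the tip, had 70.5 and 70.1 CPM against 57.5 and 53.0 CPM and fell by 0.35 (edgeR adjusted p = 0.0430). NDUFA6, which anchors the acyl carrier protein, had 80.2 and 78.6 CPM against 64.3 and 63.6 CPM and fell by 0.31 (edgeR adjusted p = 0.0470). Of these calls only that of NDUFS6 held under each alternative. NDUFA12, NDUFA2 and NDUFA9 had log2 fold changes between -0.24 and -0.23 without passing. NDUFS4, a late-assembled subunit, and NDUFA5 were near 0 (-0.01 and -0.03), and their groups overlapped.

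Of 20 accessory subunits of the membrane arm 5 fell (25%), against 7.66% of all tested genes. NDUFB7, a disulfide-bonded subunit on the intermembrane-space side (chromosome 19, 14676891 to 14682889 in hg19), had 202 and 201 CPM in the controls and 142 and 136 CPM with cadmium. The controls differed by less than 1 CPM and both cadmium libraries were far below them. It fell from 202 ± 0.369 to 139 ± 4.23 CPM, by 0.54 (SE 0.08, edgeR adjusted p = 0.00703). NDUFA11, a membrane subunit at the contact with complex III in respiratory supercomplexes (chromosome 19, 5894682 to 5904024 in hg19), had 288 and 292 CPM against 204 and 198 CPM. It fell from 290 ± 3.26 to 201 ± 4.52 CPM, by 0.53 (SE 0.08, edgeR adjusted p = 0.00657), with no overlap. NDUFB2 had 101 and 92.5 CPM against 72.3 and 67.1 CPM and fell by 0.48 (edgeR adjusted p = 0.0158). NDUFB10, like NDUFB7 on the intermembrane-space side, had 80.0 and 82.0 CPM against 61.1 and 59.9 CPM and fell by 0.42 (edgeR adjusted p = 0.0193). In each of these the cadmium libraries lay below both controls. NDUFA10, a subunit related to nucleoside kinases, had 70.8 and 70.7 CPM against 58.3 and 54.5 CPM and fell by 0.32, just inside the threshold (edgeR adjusted p = 0.0496). Among these membrane-arm calls only those of NDUFB7 and NDUFA11 held under each alternative.

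The remaining 15 membrane-arm subunits ranged from -0.27 to 0.18 and none passed. NDUFB3, NDUFB1 and NDUFS5, named after their values were seen, were the 3 subunits with a positive fold change. NDUFB3 had 19.6 and 18.4 CPM in the controls and 21.3 and 22.0 CPM with cadmium (0.18 on the log2 scale, SE 0.13, edgeR adjusted p = 0.353), the 1 subunit whose cadmium libraries were both above both controls. NDUFB1 had 18.6 and 22.2 CPM against 21.7 and 23.1 CPM (0.15, SE 0.14). The groups of NDUFB1 overlapped, and its value was 0.0081 without control replicate 1 and 0.26 without control replicate 2. NDUFS5, which like NDUFB7 faces the intermembrane space, had 124 and 132 CPM against 129 and 132 CPM (0.02, SE 0.08), and without control replicate 1 its fold change was -0.02. Differences between subunits of the same arm were not tested. NDUFAB1, the mitochondrial acyl carrier protein, which serves complex I and also fatty acid synthesis, had 76.6 and 74.0 CPM against 61.9 and 62.8 CPM. Its groups were apart, but the test was not passed (-0.27, SE 0.09, edgeR adjusted p = 0.0717).

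**Figure D2:**
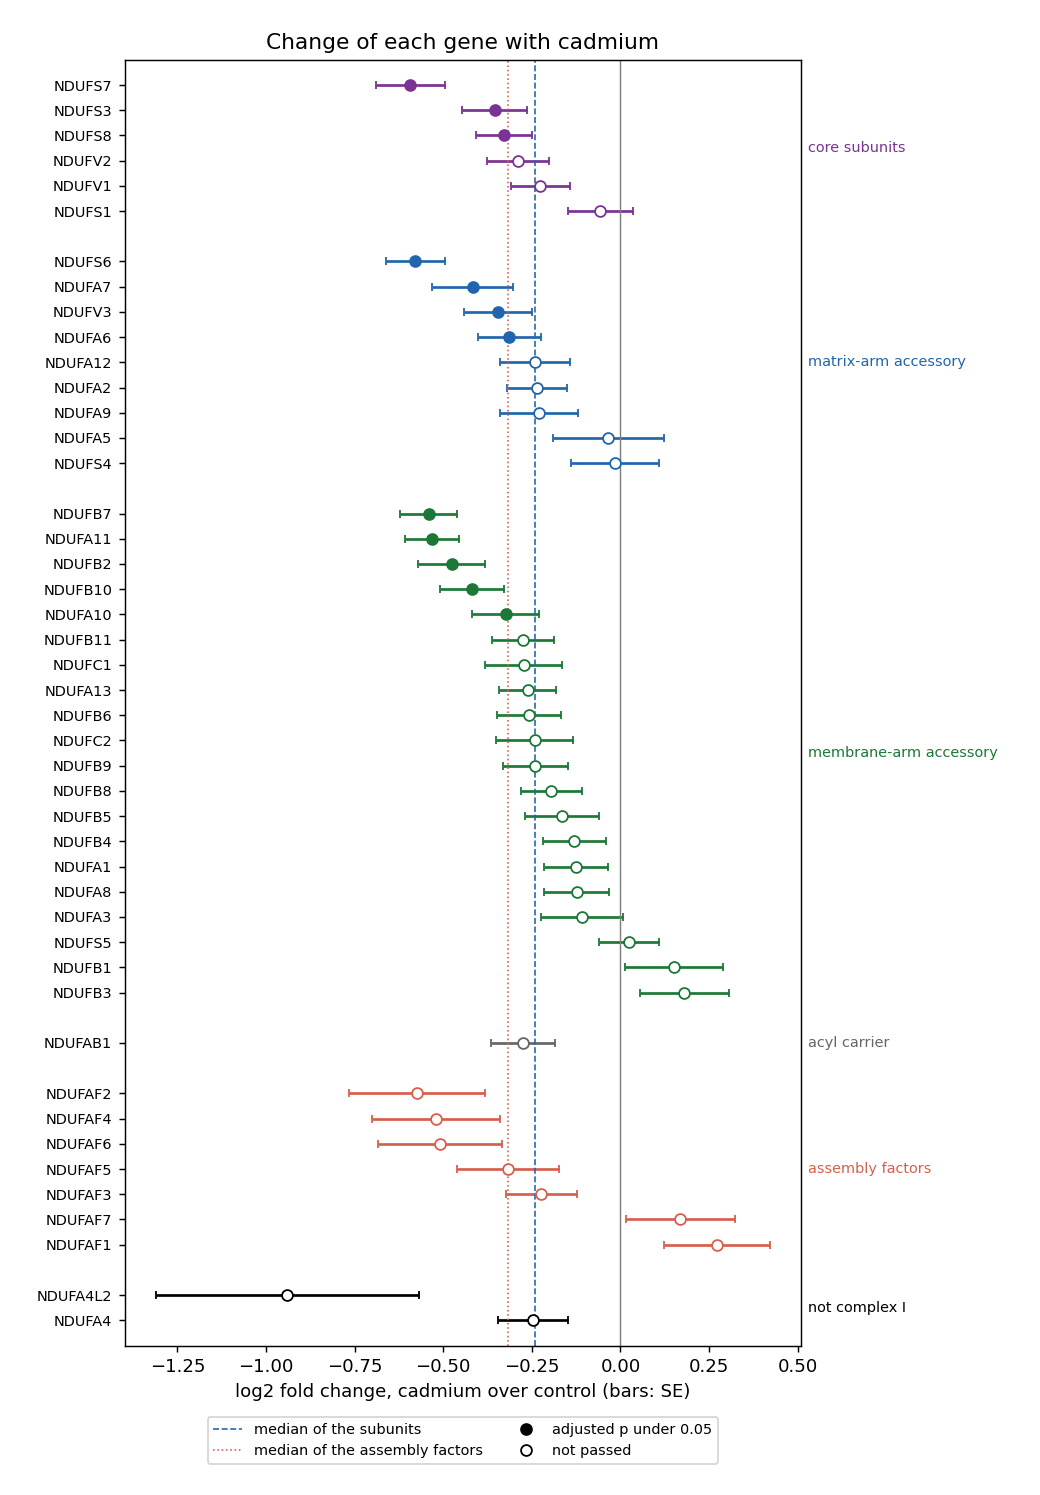
Log2 fold change of 45 of the 46 genes, each with its standard error, cadmium over control, by role; filled points passed an adjusted p of 0.05 (edgeR). The 12 filled points are all subunits and all lie left of 0, and the dashed and dotted lines mark the medians of the subunits (-0.24) and of the assembly factors (-0.32).

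The 7 assembly factors with the NDUFAF name gave no call in either direction in edgeR, 0 with DESeq2 and 1 lower with limma-voom, where NDUFAF4 passed. At an unadjusted p under 0.05, 3 of 7 were lower and 0 higher, against 16.7% and 17.3% of all genes. Their median log2 fold change was -0.32, against 0.00 for all tested genes. Both cadmium libraries lay below both controls for 5 of the 7, against 30.8% of all tested genes. NDUFAF2, a paralog of NDUFA12 that holds its place late in assembly, had 12.4 and 10.2 CPM in the controls and 8.43 and 6.83 CPM with cadmium (-0.57, SE 0.19, edgeR adjusted p = 0.0742). NDUFAF4 had 23.9 and 18.8 CPM against 13.2 and 17.1 CPM (-0.52, SE 0.18, edgeR adjusted p = 0.0809). Its partner in early assembly, NDUFAF3, had 108 and 128 CPM against 101 and 101 CPM (-0.22, SE 0.10). These were lower in both cadmium libraries, with a wide gap between the 2 controls in each. The 2 cadmium libraries of NDUFAF2 and of NDUFAF4 also lay apart. NDUFAF6, an early factor, had 12.7 and 10.6 CPM against 8.56 and 7.97 CPM (-0.51, SE 0.18, edgeR adjusted p = 0.0812). NDUFAF5, which hydroxylates an arginine of NDUFS7, had 21.8 and 18.2 CPM against 16.0 and 16.5 CPM (-0.32, SE 0.14). NDUFAF7, a protein methyltransferase, had 15.4 and 19.2 CPM against 18.5 and 20.0 CPM and overlapped (0.17, SE 0.15). NDUFAF1, an early factor of the membrane arm, was the 1 assembly factor with both cadmium libraries above both controls, at 12.7 and 12.8 CPM against 14.5 and 16.4 CPM (0.27, SE 0.15, edgeR adjusted p = 0.238). Values of the assembly factors turned on single libraries of either group. Without cadmium replicate 1 NDUFAF4 was at -0.32 and NDUFAF2 at -0.74. Without cadmium replicate 2 NDUFAF4 was at -0.70 and NDUFAF2 at -0.44. Without control replicate 1 NDUFAF3 was lower (-0.34, edgeR adjusted p = 0.0385), while NDUFAF4 moved to -0.33 and NDUFAF5 to -0.17. Without control replicate 2 NDUFAF2, NDUFAF4, NDUFAF5 and NDUFAF6 passed (-0.69, -0.68, -0.44 and -0.62, edgeR adjusted p up to 0.0316), and NDUFAF3 moved to -0.11. Counts of NDUFAF4 can be shared with the pseudogene NDUFAF4P1, and how the authors' counting split such reads is not given in the sources used here.

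Summed over the members, subunits reached 3914 and 3961 CPM in the controls and 3260 and 3204 CPM with cadmium. The assembly factors summed to 207 and 218 CPM in the controls and to 180 and 185 CPM with cadmium. Both sums were lower in each cadmium library than in each control. Per 100 subunit reads there were 5.29 and 5.50 assembly-factor reads in control libraries and 5.53 and 5.79 in cadmium libraries. Both cadmium values lay just above both controls. The log2 ratio of assembly factors to subunits differed by 0.07 between the groups, with an SD of 0.04 between libraries of a group. The 2-sided exact permutation test of the 4 ratios gave p = 0.33, the smallest that 2 against 2 libraries allow. NDUFAF3 made up much of the assembly-factor sum. Without it there were 2.52 and 2.27 assembly-factor reads per 100 subunit reads in control libraries and 2.43 and 2.65 in cadmium libraries, and the groups overlapped (log2 difference 0.08). The presence of 12 calls among subunits and 0 among assembly factors therefore does not show that the classes differed. The median control level was 17.3 CPM for assembly factors and 92.6 CPM for subunits.

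On the authors' deposited RPKM scale, which divides by their own gene length, NDUFA13 was the highest subunit in each library. It had 348 and 363 RPKM in the controls and 311 and 295 RPKM with cadmium. NDUFB7 followed with 322 and 321 RPKM in the controls and NDUFA11 with 310 and 314 RPKM. With cadmium these became 232 and 220 RPKM for NDUFB7 and 225 and 215 RPKM for NDUFA11, 2 neighbours whose libraries overlapped. NDUFA5 was the lowest subunit on this scale, at 3.29 and 2.55 RPKM in the controls and 2.95 and 2.95 RPKM with cadmium. That rank rests on the authors' gene length, which can differ from the matched transcript length. Among the assembly factors NDUFAF3 stood at 77.1 and 94.6 RPKM in the controls, while the other 6 had at most 15.0 RPKM in any library.

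The authors' deposited table listed 9 subunits as lower and 0 as higher at an adjusted p under 0.05, and 0 assembly factors in either direction. Of all 25411 rows in the authors' deposited table, 3.93% were lower and 3.87% higher. Only 18131 of these genes had any read, so these shares are not comparable with those over the 13663 tested genes. The authors' deposited table gave a log2 ratio of -0.51 for NDUFA11, -0.55 for NDUFS6, -0.52 for NDUFB7 and -0.56 for NDUFS7, the 4 members with its smallest adjusted p-values. NDUFV3, NDUFA6 and NDUFA10 passed the edgeR test but had adjusted p-values of 0.0523, 0.0632 and 0.0690 in the authors' deposited table.

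NDUFA4, the complex IV subunit, had 51.7 and 54.4 CPM in the controls and 45.4 and 43.7 CPM with cadmium and did not pass (-0.25, SE 0.10, edgeR adjusted p = 0.120). NDUFA4L2, its paralog known to be induced in hypoxia, was counted with only 59 and 25 reads in control and 50 and 14 in cadmium libraries (2.27 and 2.97 against 1.63 and 0.886 CPM). It had the most negative fold change of the 46 genes and the widest error (-0.94, SE 0.37, edgeR adjusted p = 0.117).

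Assembly factors with other names, taken from a list of 13, gave 1 lower, 0 higher and 12 that did not pass, with a median of -0.20. The 1 that fell was C17orf89, now NDUFAF8, a partner of NDUFAF5, with 70.9 and 67.8 CPM in the controls and 45.8 and 48.6 CPM with cadmium. Both cadmium libraries were below both controls, and it fell by 0.56 (SE 0.10, edgeR adjusted p = 0.0105). Of 12 nuclear regulators of mitochondrial genes 11 were tested, and 1 fell and 0 rose, with a median of -0.17. GABPB1, the subunit of GABP that activates transcription, had 23.5 and 22.9 CPM against 15.1 and 16.2 CPM and fell by 0.58 (SE 0.13, edgeR adjusted p = 0.0225). NRF1 had 35.6 and 35.9 CPM against 28.4 and 28.5 CPM and YY1 134 and 133 CPM against 106 and 114 CPM. Neither passed, with log2 fold changes of -0.33 and -0.28 (edgeR adjusted p = 0.0691 and 0.0551). PPARGC1A, a coactivator of these factors, had at most 3 reads in a library and was not tested. At an unadjusted p under 0.05, 6 of 13 and 5 of 11 genes of the lists were lower and 0 higher, against 16.7% and 17.3% of all genes. Counts of 1 in each list are shares of 7.69% and 9.09%, near the 7.66% of all genes that fell.

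Other nuclear genes of mitochondria had medians of similar size, in lists chosen after values were seen. Of 41 tested genes of complexes II to V, with NDUFA4 among them, 9 fell (22.0%) and 1, COX6B2, rose, and the median was -0.20. Of 77 mitochondrial ribosomal protein genes 27 fell (35.1%) and 0 rose, with a median of -0.28. At an unadjusted p under 0.05 there were 45 lower and 0 higher, against 16.7% and 17.3% of all genes. Of 80 cytosolic ribosomal protein genes 11 fell (13.75%) and 1, RPL26, rose, with a median of -0.12. Over all tested genes 7.66% fell and 8.85% rose. The fall was therefore not shown to be particular to complex I.

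The subunits share features that the naming rule did not use. Their transcripts were short, with a median length of 941 bases against 2807 bases for all tested genes, and 29 of the 36 subunits with a matched transcript lay in the shortest of 4 equal bins of all genes. In that bin the median log2 fold change of all genes was -0.10 and 13.4% of all genes fell, against 0.09 and 3.27% in the bin of the longest transcripts. Of the 29 subunits in the shortest bin 9 fell. Library scaling was also allowed to vary with gene length, derived from the authors' counts and RPKM and not from the transcripts of these bins. With it 5 subunits fell and their median was -0.12. Subunits were also abundant, and all genes in the highest of 4 bins by level had a median of -0.10 with 16.3% lower, against 0.27 with 1.26% lower in the lowest bin. Of the 19 subunits in the highest bin 7 fell. With level-dependent scaling 6 subunits fell and the median was -0.18. A part of length or level in the lower subunit values was not tested beyond these scalings.

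Within the subunits, the lower fold changes lay with transcripts of high GC content. With all genes divided into 4 equal bins, 0 of 6 subunits fell in the bin with the least GC, 1 of 9 in the next, 5 of 13 in the one above and 5 of 8 in the bin with the most GC. The share of all genes that fell also climbed along these bins, from 3.63% to 5.78%, 9.75% and 12.1%. The subunit medians in these bins were -0.05, -0.24, -0.24 and -0.37, whereas the medians of all genes were 0.02, 0.00, -0.02 and -0.01. NDUFS7, NDUFB7 and NDUFA11, with 66.5%, 65.0% and 61.7% GC, were among the largest falls, but so was NDUFS6, with 53.9%. NDUFB3, with 42.2%, had the highest fold change. Across the 36 subunits, which share the same 4 libraries, fold change and GC content had a Pearson r of -0.62 and a Spearman rho of -0.59. Across the 13220 tested genes with a matched transcript these were 0.03 and -0.03. Fold change and log2 transcript length had an r of -0.01 among the subunits. Fold change and log2 level had an r of -0.54 and a rho of -0.32 among the 37 subunits, and -0.31 and -0.30 among all tested genes. With scaling that varied with GC content 14 subunits fell.

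**Figure D3:**
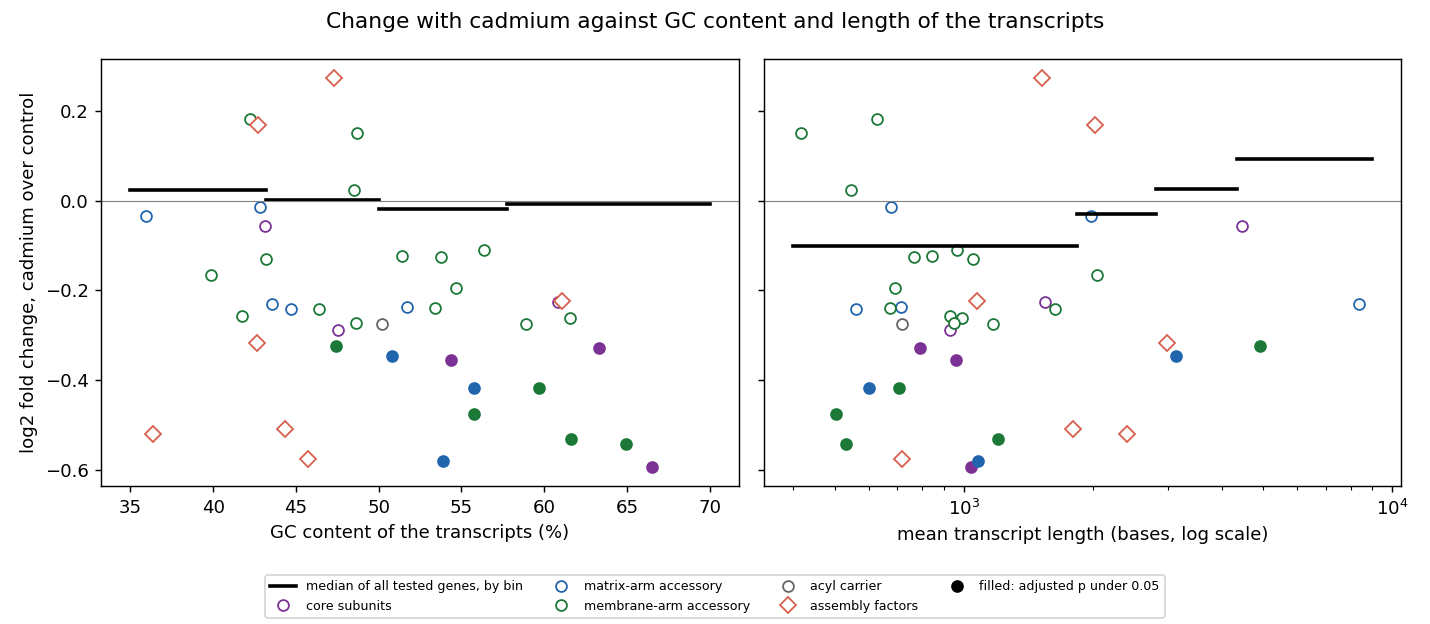
Log2 fold change of the drawn subunits (circles) and of the assembly factors (diamonds) against GC content (left) and mean transcript length on a log axis (right); black lines are medians of all tested genes in 4 equal bins of each property. Filled points, which passed an adjusted p of 0.05, lie mostly at 50% GC or more, and the all-gene medians are near 0 along GC but run from -0.10 to 0.09 along length.

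Some rows share sequence with others. NDUFC2 overlaps the readthrough gene NDUFC2-KCTD14 on the same strand. NDUFC2 had 80.0 and 72.7 CPM in the controls and 60.2 and 69.6 CPM with cadmium and did not pass, whereas NDUFC2-KCTD14, which is no member, had 77.2 and 80.8 CPM against 49.6 and 42.3 CPM and fell by 0.78 (edgeR adjusted p = 0.00626). How reads common to both were divided is not known, so the values of NDUFC2 are uncertain. NDUFS3, NDUFB2 and 7 further members overlap a gene on the other strand, and the use of strand in counting is not given in the sources used here. For NDUFB2 the antisense row NDUFB2-AS1 had at most 2.66 CPM in any library, and for NDUFS3 the overlapping KBTBD4 had at most 16.0 CPM. NDUFA4L2, which had few reads, overlaps SHMT2 on the other strand, so its values are uncertain too.

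The number of subunits that fell depended on the libraries and the scaling more than their direction did. When either cadmium library was left out 4 subunits fell, NDUFS7, NDUFS6, NDUFB7 and NDUFA11, and 8 fell without control replicate 1. The other 8 of the 12 lost their call in at least 1 alternative. NDUFA6 kept it in 4 of 13 alternatives, NDUFV3 in 5 of 15 and NDUFA10 in 6 of 15. NDUFS3 and NDUFA7 kept it in 7 of 15, NDUFS8 in 9, NDUFB10 in 11 and NDUFB2 in 12. Between 29 and 34 subunits had a negative fold change under every alternative. The subunit median stayed between -0.26 and -0.12.

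**Figure D4:**
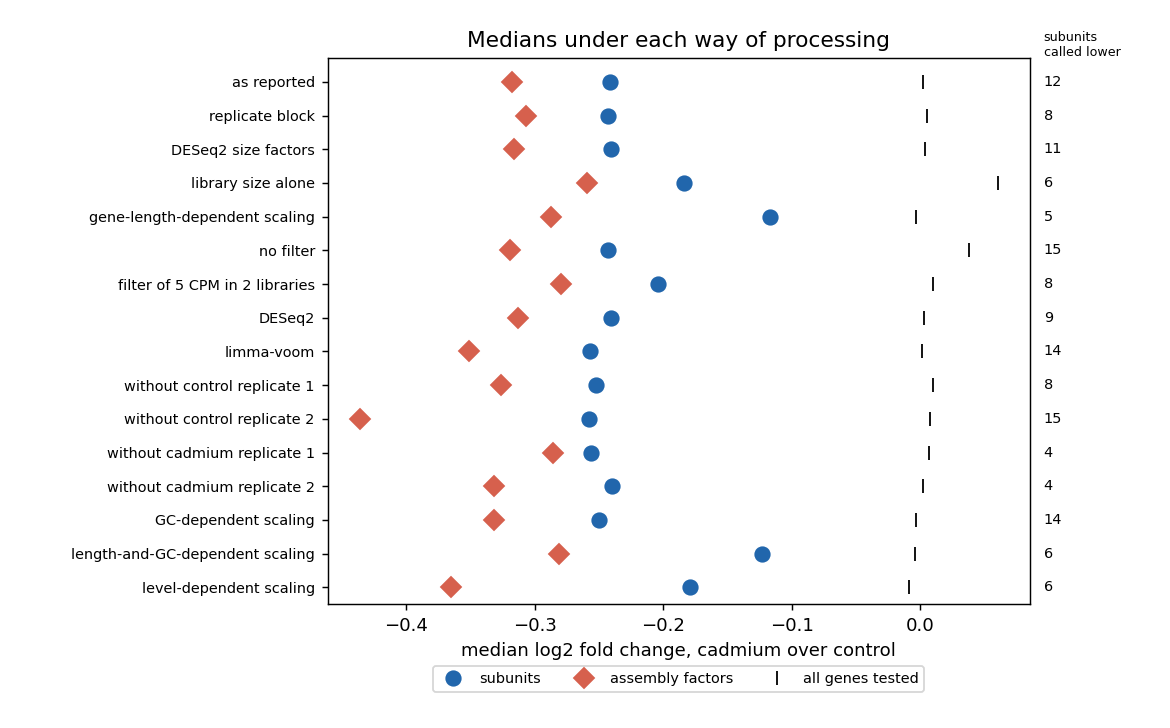
Median log2 fold change of subunits (circles), assembly factors (diamonds) and all tested genes (bars) under each way of processing, with the number of subunits that fell at the right. The subunit medians lie between -0.26 and -0.12, below those of all genes in each row, while the number that fell runs from 4 to 15.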

How the data were processed

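RNA of 4 BEAS-2B libraries was measured by sequencing, 2 control and 2 cadmium. Per the submitters' processing notes, STAR 2.4, DESeq2, DESeq and the build hg19 were used, without the role of each. The counter, annotation release and strand setting were not given in sources used here. Per the file headers, the authors deposited whole-number read counts per gene and RPKM for each library. Their deposited comparison table holds a mean RPKM for each group, a log2 ratio, and a p-value with its adjusted form. Gene coordinates are those of the deposited tables in hg19, and promoters are RefSeq's on GRCh38.p14, so their positions are not comparable.

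The deposited counts were tested with R 4.3.3 and edgeR 4.0.16: filterByExpr, TMM, robust quasi-likelihood fit with the group alone, and Benjamini-Hochberg adjustment over 13663 genes (threshold 0.05). The SE was derived from the F statistic. Transcript length and GC content came from GENCODE release 29 transcripts, a GRCh38 annotation, matched by RefSeq accession, for 13220 tested genes and 45 of the 46 members, all but NDUFA6. The scalings that vary with gene length used instead a length derived from the authors' counts and RPKM. Alternatives were a replicate block, other scalings and filters, DESeq2 1.42.0, limma-voom (limma 3.58.1) and leaving out each library. The procedure was also run on simulated data as a check of the code, and no result given here rests on it.

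The members, roles and lists were chosen with earlier results of these data known. Scalings by GC content and level, the motif words, the lists of other mitochondrial and ribosomal genes, the ratio without NDUFAF3 and the naming of NDUFB1, NDUFB3 and NDUFS5 were added after values were seen. Values in every library are given for the core subunits (1 is not reported here and not drawn), for members past the threshold (at most 6 a role and direction) and for the largest change in each role. From the pathway lists, genes past the threshold are named.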

Additional observations from a re-analysis of the deposited data

How the results depend on the processing

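The direction of the subunit median and the count of 0 higher subunits were the same under all 15 alternatives. The count of 12 lower subunits became 6 with library size alone, 5 with gene-length-dependent scaling and 6 with length-and-GC-dependent or level-dependent scaling, and 4 to 15 when 1 library was left out. The lone library of a group was then assumed to vary like the other group. The subunit median of -0.24 became -0.18 with library size alone, -0.12 with gene-length-dependent scaling, -0.20 with a filter of 5 CPM in 2 libraries, -0.12 with length-and-GC-dependent scaling and -0.18 with level-dependent scaling. Lower assembly factors numbered 2 with no filter, 1 with limma-voom, 1 with GC-dependent, length-and-GC-dependent or level-dependent scaling, and 0 to 4 with 1 library left out (4 without control replicate 2). Over all genes, library size alone gave 682 lower, and leaving out 1 library gave 369 to 1977 higher and 235 to 1791 lower. The log2 ratio of assembly factors to subunits became 0.025 with gene-length-dependent scaling and 0.036 to 0.101 with 1 library left out. NDUFS1 changed sign with library size alone (0.0015) and level-dependent scaling (0.0021), and without control replicate 1 so did NDUFS5 (-0.023 to 0.059 with 1 library left out) and NDUFAF7 (-0.0073 to 0.306), all without passing. The cause of these shifts was not tested.

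Of the 12 lower subunits, 12 kept the call with no filter and limma-voom, 11 with DESeq2 size factors, 9 with DESeq2, 8 with the stricter filter and 4 in every alternative. With the replicate block 8 subunits fell, 1073 genes rose and 811 fell. No label ties equal replicate numbers to a shared culture or day. Deviations of same-numbered libraries had a correlation of -0.11 over all tested genes, which cannot show whether a culture or day was shared. Depth was low for some assembly factors: NDUFAF2 had 86 reads in control replicate 2, while NDUFAF3 had at least 1078 in each library.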
